A study of Mus musculus with 21 samples.

Results

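The DNA replication and S phase genes are 34 mouse genes, chosen by name, that build the replication fork, supply its nucleotides or control entry into S phase. A probe set was counted for a gene where the platform annotation gives that symbol alone, and 33 of the 34 genes had at least 1, with 77 of the 45101 probe sets on the array. No probe set was listed for Chaf1a, a subunit of the chromatin assembly factor. Each gene was represented by its probe set with the highest mean signal at 24 h, here called its main probe set. The suffix x or s in a probe set name marks probes that can also match other transcripts, as in the main probe sets of Fen1, Ccne1, Mcm4, Mcm5, Mcm7 and Rrm2 among others. Of the 33 genes, 31 passed the filter on low signals and were tested among 12446 genes. Pole, the catalytic subunit of polymerase epsilon, had a mean signal of 61.9 and exceeded the median of its own array on 2 of 15 arrays, where 3 were required. Tyms, thymidylate synthase, exceeded it on 0 arrays with any of its 4 probe sets.

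Aortic smooth muscle cells of C57BL/6J mice, all male and 10 to 12 weeks old, were cultured in DMEM/F12 with 10% FCS. They were given PBS, 10 µg/ml of an antibody to the lymphotoxin beta receptor (anti-LTBR), 1 ng/ml of TNF alpha (TNF), or the antibody and TNF together. All groups were fed 24 h before stimulation, and the series asks how the agonists act together on these cells. At 24 h PBS, anti-LTBR and TNF had 4 arrays each, with the numbers 0 to 3 in their titles, and both agonists had 3, with the numbers 1 to 3, while at 2 h and 6 h each of PBS, anti-LTBR and TNF had 1 array, numbered 0. The labels do not say whether a number stands for an animal, a culture or a day. The main fit takes out the differences between numbers. Its p-values therefore describe the spread that remains among these arrays, which may be technical.

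DNA replication starts at origins where the MCM2-7 helicase is loaded during G1 and switched on at the start of S phase. At the fork, primase and polymerase alpha lay down primers, the clamp loader places the sliding clamp PCNA, and the lagging strand is made as short fragments that are trimmed and joined. Transcription of many of these genes is controlled by E2F factors, which are held back by the retinoblastoma protein until cyclins D and E with their kinases release them, and in vessels these genes are used as signs that smooth muscle cells have left quiescence.

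Because E2F factors act at promoters, the bases just before the start sites of 6 members that were higher with both agonists than with PBS at 24 h are shown. Each run holds the 120 bases before the RefSeq start site in the build GRCm38.p6, 5′ to 3′ on the gene's own strand. Capitals mark matches to an E2F-like motif, here the letters TTCCCGC, the variant TTCGCGC, the variant TTGCCGC or the variant TTGGCGC, on either strand and with overlaps allowed.
Mcm6, chr1:128359706-128359825, strand minus: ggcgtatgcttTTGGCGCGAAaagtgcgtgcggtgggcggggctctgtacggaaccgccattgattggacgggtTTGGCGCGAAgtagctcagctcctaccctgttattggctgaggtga
Mcm7, chr5:138171267-138171386, strand minus: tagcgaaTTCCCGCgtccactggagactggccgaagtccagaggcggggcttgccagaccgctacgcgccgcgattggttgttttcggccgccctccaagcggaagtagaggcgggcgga
Rrm1, chr7:102441575-102441694, strand plus: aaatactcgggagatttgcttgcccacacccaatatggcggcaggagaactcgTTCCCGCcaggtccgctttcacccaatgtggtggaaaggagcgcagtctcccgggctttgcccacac
Pcna, chr2:132253181-132253300, strand minus: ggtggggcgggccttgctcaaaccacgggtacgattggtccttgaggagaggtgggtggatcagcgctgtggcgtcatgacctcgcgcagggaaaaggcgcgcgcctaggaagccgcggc
Rfc5, chr5:117389024-117389143, strand minus: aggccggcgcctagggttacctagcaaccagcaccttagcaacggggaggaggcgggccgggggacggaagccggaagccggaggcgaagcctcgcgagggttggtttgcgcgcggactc
Ccne1, chr7:38107491-38107610, strand minus: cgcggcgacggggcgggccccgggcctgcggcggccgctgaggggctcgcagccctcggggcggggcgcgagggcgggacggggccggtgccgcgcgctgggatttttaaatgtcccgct
The stretch of Mcm6 held 4 matches, which overlap in pairs on opposite strands. Mcm7 and Rrm1 had 1 match each, and Pcna, Rfc5 and Ccne1 had 0 in these letters. Mcm3, which has a window and was also higher with both agonists than with PBS, is not shown. It had 0 in its 120 bases before the start and 3 matches after it. Mcm7 has a second RefSeq start whose 120 bases held 0. Gene symbols found a RefSeq window of 300 bases, 250 before the start and 50 after it, for 27 of the 34 members. An E2F-like match lay in 64.5% of the 31 member windows, in 9.57% of all 32851 windows, and in 15.8% of the 12876 windows of tested genes. CCAAT on either strand lay in 58.1% of member windows and 37.4% of all windows, and GGGCGG in 67.7% and 35.7%, or 60.5% for tested genes. Of the members higher with both agonists than with PBS, 4 of 7 with a window had an E2F-like match, against 13 of 18 members that were tested and not called in that comparison. These are matches of letters, and binding was not measured.

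Before the treatments are compared, the arrays must be described, since those numbered 0 stand apart. Acta2, the smooth muscle actin, ranged from 16442 to 19662 over the 15 arrays at 24 h, and all 8 smooth muscle markers were tested. Myh11, the smooth muscle myosin heavy chain, was at 110.7 to 152.1 on the arrays numbered 0 and at 2153 to 3338 on those numbered 2. Other markers were not lowest there: Smtn was at 2095 to 2468 for number 0 and 1185 to 2111 for number 1. For Myocd these ranges were 51.8 to 90.3 and 27.5 to 47.8. The summed signal of the 8 was 34840 to 36960 for number 0 and 30200 to 38490 for number 1. It was 35540 to 47310 for number 2 and 39200 to 43840 for number 3. The summed signal of 10 endothelial markers, of which 9 were tested, was 19670 to 20870 on the arrays numbered 0, 2691 to 2794 for number 1, 1092 to 1781 for number 2 and 991.4 to 1160 for number 3. Of the 10, 8 were higher on every array numbered 0 than on any other. The exceptions were the receptor Kdr, at 170.1 to 275.7 for number 0 and 271.7 to 362.3 for number 3, and the junction protein Cldn5, at 9.5 to 75.7 and 48.3 to 97.1. Tie1, another endothelial receptor, lay between 2.2 and 7.8 for numbers 2 and 3. The 8 macrophage markers with a probe set (of 9 named, 5 tested) summed to 3142 to 4483 for number 3 and to 1120 to 2047 for numbers 0 and 1. Both agonists together have no array numbered 0, so that group's endothelial sum (1134 to 2719) lacks the high values that the other groups contain. The trimmed mean signal was 500.0 on each array, as the deposited scaling sets it, while the medians ran from 106.8 to 139.0.

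The replication genes differed between the replicate numbers at 24 h. With the treatment groups as a term, the moderated F test of limma over the numbers called 28 of the 31 genes, where 65.5% of all genes tested were called. Prim2, Rfc1 and Rfc4 were not called. The span between the highest and lowest number had a median of 0.85 on the log2 scale for the members and 0.41 for all genes. The arrays numbered 0 were the highest for 28 of 31 members, against 24.9% of all genes. Number 3 was the lowest for 17 members (21.7% of all genes) and number 1 for 14 (30.0% of all genes). Relative to number 0, the members' median was -0.71 for number 1, -0.32 for number 2 and -0.78 for number 3, where the medians of all genes were -0.01, 0.02 and 0.06. Of the other members, Rfc1 was highest in number 2 (19.3% of all genes), Ccne1 in number 3 (31.8%) and E2f1 in number 1 (24.0%). With the arrays numbered 0 left out, 24 of the 31 members were called between the remaining numbers, beside 52.8% of all genes. Among the 3 arrays with both agonists, number 2 was the highest for 28 of 31. The endothelial marker sum was highest in number 0 and the macrophage sum in number 3, and their part in these differences was not tested. In these bulk samples, fewer cells in S phase and less RNA per cell cannot be told apart.

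**Figure D1:**
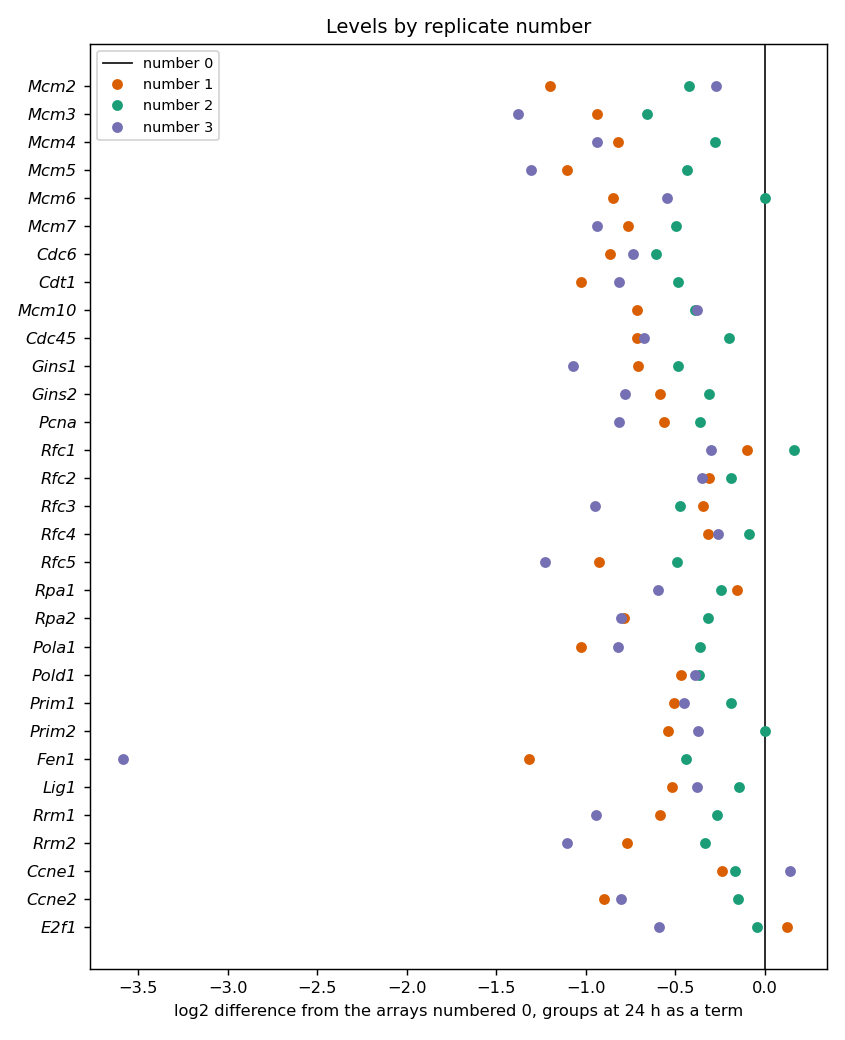
Log2 difference of each of the 31 genes from the arrays numbered 0 at 24 h (x axis), with the treatment groups as a term; points are coloured by replicate number and the vertical line marks number 0. Nearly all points lie left of the line, with medians of -0.71, -0.32 and -0.78 for numbers 1, 2 and 3, and Fen1 in number 3 lies farthest out at -3.58.

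Because of these differences the treatments were compared with the number as a block, in 1 limma fit of the 15 arrays at 24 h on log2(signal + 10.1), so each difference is on that scale. A gene was called at a Benjamini-Hochberg adjusted p under 0.05 over the 12446 genes. Without the block no member was called in any of the 7 comparisons. At an unadjusted p under 0.05 that fit had 1 member in the comparison of both agonists with PBS, beside 11.5% of all genes. It had 0 members in the others, beside 1.32% to 4.75% of all genes. The comparisons share arrays: PBS serves as the control of 3 of them, so their values are given side by side and are not independent of one another.

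With both agonists at 24 h, 8 of the 31 genes rose against PBS and 0 fell, beside 9.1% of all tested genes that rose and 10.4% that fell. They were the helicase subunits Mcm3, Mcm6 and Mcm7, the helicase activator subunit Gins2, Pcna, the clamp loader subunit Rfc5, the ribonucleotide reductase subunit Rrm1 and the cyclin Ccne1. The rises were small, from 0.23 for Pcna to 0.60 for Mcm7 on the log2 scale. The median of the 31 was 0.23, with 28 above 0, and that of all genes was 0.00. Without the block the members' median was 0.06, with 21 above 0 and 10 below. Within the pairs of one number, the members' median was 0.20 for number 1 and 0.35 for number 2 but -0.10 for number 3. In 11 members every pair was higher with both agonists than with PBS, beside 24.2% of all genes, and in 0 every pair was lower, beside 25.3%. With arrays scaled to equal medians, 7.42% of all genes were called higher and 6.91% lower. The summed signal of the 8 smooth muscle markers was 36960 to 47310 with PBS, 34840 to 40930 with anti-LTBR, 35990 to 40940 with TNF and 30200 to 39200 with both agonists. That of the adventitial fibroblast markers (6 with a probe set of 7 named, 5 tested) was 7316 to 10990, 8293 to 12580, 6986 to 10650 and 8189 to 14430 in the same order. The groups overlap in both sums. Within each replicate number, however, the smooth muscle sum was highest with PBS, at 36960, 38490, 47310 and 43840 for numbers 0 to 3. It was lowest with both agonists in the numbers that have them, at 30200, 35540 and 39200 for numbers 1 to 3. The fibroblast sum was highest with anti-LTBR in numbers 0 and 2, at 12580 and 8293, and with both agonists in number 1, at 14430. In numbers 1 and 2 it was lowest with TNF, at 10650 and 6986. The part of both sums in the differences between treatments was not tested. Fitted to PBS and both agonists alone, 2 members were called, beside 5.98% of all genes higher and 6.85% lower. With the arrays numbered 0 left out, 6 members were called, beside 8.02% of all genes higher and 9.36% lower.

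With anti-LTBR alone, 2 of the 31 genes rose against PBS, Mcm7 and Pcna, and 0 fell, beside 2.56% of all genes that rose and 2.23% that fell. The median of the members was 0.17, with 27 above 0, and that of all genes was -0.01. Pair medians were 0.36, 0.26 and 0.17 for numbers 0, 1 and 2, and -0.08 for number 3. In 9 members all 4 pairs were higher with anti-LTBR (12.1% of all genes). Without the arrays numbered 0 the call that remained was that of Mcm7, beside 1.61% of all genes higher and 0.908% lower. Scaling the arrays to equal medians moved the share of rises among all genes called in this comparison from 53.4% to 87.1%, with 3.3% of genes called higher and 0.49% lower, and 4 members were then called.

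With TNF alone, 2 of the 31 genes fell against PBS, the helicase subunit Mcm4 and the cyclin Ccne2, and 0 rose, beside 2.88% of all genes that fell and 3.05% that rose. The median of the members was -0.18, with 27 below 0, and that of all genes was -0.02. Pair medians were 0.05 for number 0, -0.25 for number 1, -0.07 for number 2 and -0.34 for number 3. In 7 members all 4 pairs were lower with TNF (14.4% of all genes). The count rests on single arrays: leaving out single arrays gave 0 to 5 called members, beside 1.61% to 2.94% of all genes that fell. Fitting TNF and PBS alone gave 0, beside 0.972% of all genes that fell. Without the arrays numbered 0, 4 members fell, Ccne2, Mcm5, Mcm6 and Rrm2, beside 1.95% of all genes that fell. With equal medians the share of rises among all genes called with TNF moved from 51.5% to 71.1%, with 2.76% of all genes called higher and 1.12% lower, and 1 member was then called.

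**Figure D2:**
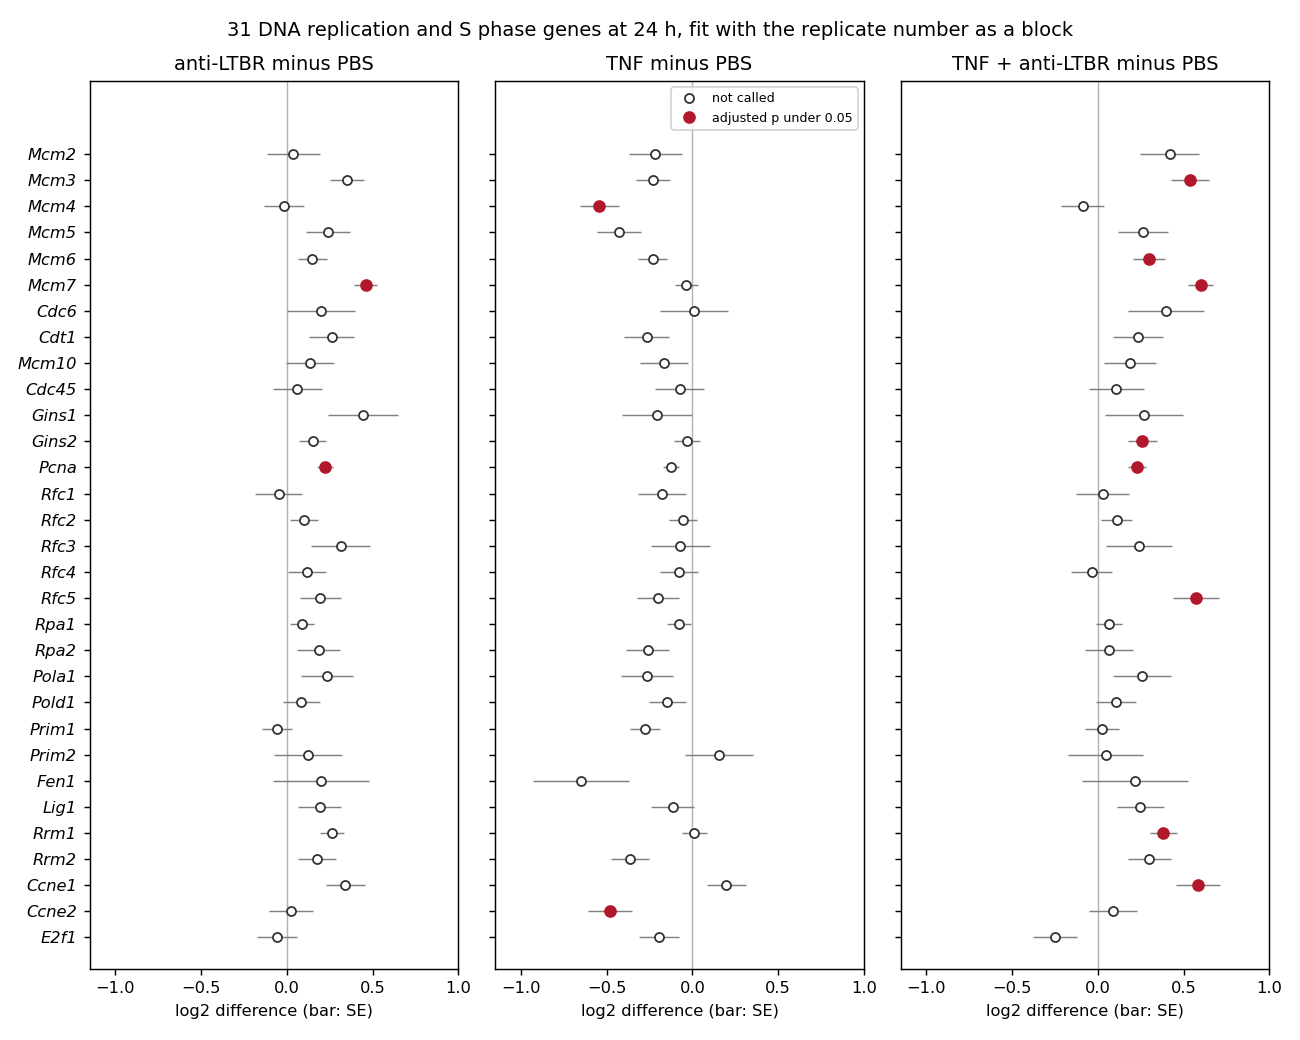
Log2 difference from PBS at 24 h (x axis) of the 31 tested genes for anti-LTBR, TNF and both agonists, from the limma fit with the replicate number as a block. Bars show the standard error and filled points an adjusted p under 0.05. The filled points number 2 for anti-LTBR, to the right of 0, 2 for TNF, to the left of 0, and 8 for both agonists, to the right of 0.

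The treated groups were also compared with each other. Between both agonists and TNF alone, 10 of the 31 genes were higher with both and 0 lower, beside 3.46% of all genes higher and 3.32% lower. These were Mcm2, Mcm3, Mcm5, Mcm6, Mcm7, Pcna, Rfc5, Rrm1, Rrm2 and Ccne2. The members' median difference was 0.37, against 0.02 for all genes, and it was 0.46, 0.44 and 0.31 within numbers 1, 2 and 3. Without the block it was 0.23, with 28 of 31 above 0. In 26 of 31 members all 3 pairs were higher with both agonists (23.1% of all genes). With the arrays numbered 0 left out 10 members were called, beside 2.57% of all genes higher and 2.33% lower, and all 10 were among those named. TNF against anti-LTBR gave 5 lower members and 0 higher, beside 0.378% of all genes lower and 0.345% higher. The lower ones were Mcm3, Mcm5, Mcm7, Pcna and Rrm2, of which Mcm7 and Pcna kept the call with each single array left out. The members' median was -0.31 with 30 of 31 below 0, it was below 0 within each number (-0.30, -0.57, -0.18 and -0.36 for numbers 0 to 3), and in 23 members all 4 pairs were lower (11.4% of all genes) and in 0 all were higher (9.29%). With the arrays numbered 1 left out, 0 members were called between TNF and anti-LTBR, and 3 between both agonists and TNF. The calls over all genes fell too, from 43 higher and 47 lower to 9 and 7 for TNF against anti-LTBR, and from 431 and 413 to 86 and 80 for both agonists against TNF.

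Between both agonists and anti-LTBR alone, 0 members were called by limma, beside 2.77% of all genes called higher and 2.8% lower. At an unadjusted p under 0.05 there were 2 members, beside 18.9% of all genes. In 6 members all 3 pairs were higher with both (20.0% of all genes) and in 1, Rfc4, all were lower (19.6%). The median was 0.05 and changed sign to -0.02 with arrays scaled to equal medians. Without the block it was -0.08, with 6 members above 0 and 25 below. The interaction of the agonists is the difference between the effect of both and the sum of the single effects. It also gave 0 called members by limma, with a smallest adjusted p of 0.384. Of all genes 0.0% were called higher and 0.0161% lower. At an unadjusted p under 0.05 the interaction had 9 members, all above 0, beside 9.63% of all genes. The members' median interaction was 0.18, with 28 of 31 above 0. Without the block it was 0.04, with 18 of 31 above 0. Scaling to equal medians moved the median interaction of all genes from 0.02 to -0.09 and that of the members to 0.06.

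**Figure D3:**
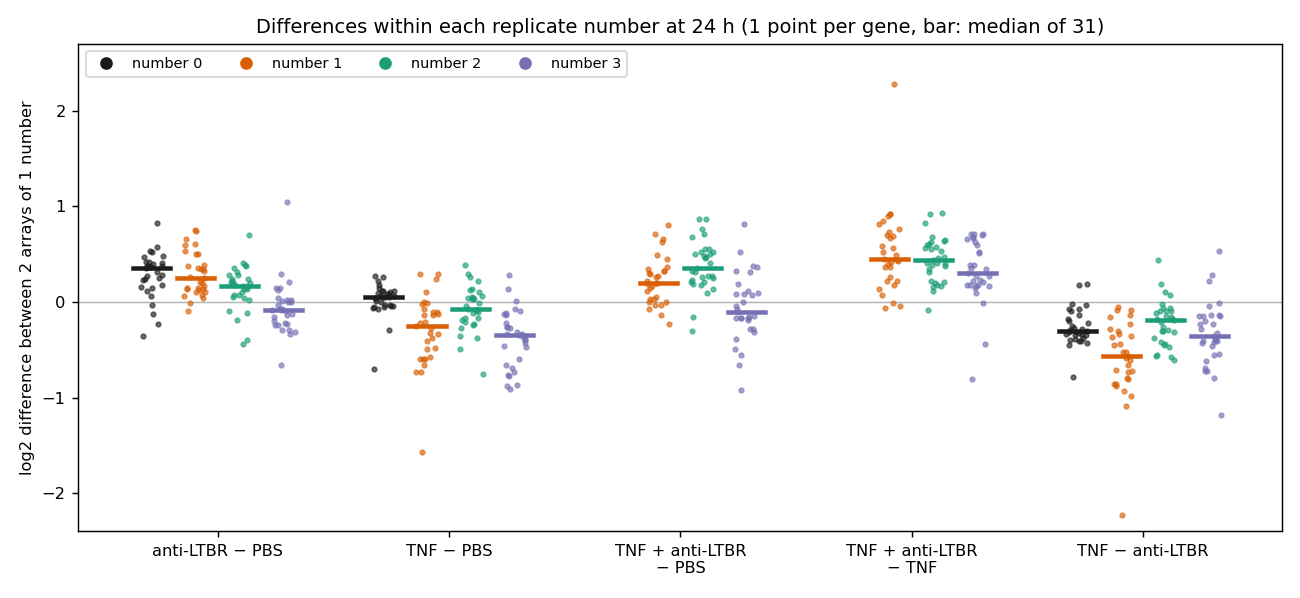
Log2 difference between the arrays of 1 replicate number at 24 h (y axis) for 5 comparisons, with 1 point for each of the 31 genes, coloured by number, and a bar at the median. The medians of both agonists minus TNF lie above 0 in each of its 3 numbers, those of TNF minus anti-LTBR below 0 in each of 4, while the differences from PBS have medians on both sides of 0.

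Among the genes of the helicase MCM2-7, the ring that unwinds DNA at the fork, 3 of 6 rose with both agonists (9.1% of all genes), 1 rose with anti-LTBR (2.56%) and 1 fell with TNF (2.88%). Mcm7 had signals of 2353, 1425, 1740 and 1448 on the PBS arrays numbered 0 to 3, and 3423, 2159, 2310 and 1777 with anti-LTBR. It was at 2613, 1359, 1779 and 1207 with TNF, and at 2260, 2790 and 1875 with both agonists on numbers 1 to 3. Within each number the anti-LTBR array and, where present, the array with both agonists were higher than the PBS array, although the groups overlap because the numbers differ. Mcm7 rose by 0.46 with anti-LTBR (SE 0.07, adjusted p = 0.00143, n = 4 against 4), which is 1.37-fold. It rose by 0.60 with both agonists (SE 0.07, adjusted p = 5.63e-05, n = 3 against 4), which is 1.52-fold, and its difference with TNF was -0.04 (adjusted p = 0.832). These calls of Mcm7 against PBS remained with each single array left out. Of its other passing probe sets, 1416030_a_at rose by 0.50 with anti-LTBR and by 0.51 with both agonists, while 1416031_s_at and 1439269_x_at did not pass the test against PBS.

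Mcm3 was at 1111, 592.8, 712.0 and 543.6 with PBS, 1451, 846.9, 935.8 and 593.0 with anti-LTBR, 1159, 508.0, 635.1 and 355.5 with TNF, and 922.5, 1214 and 589.0 with both agonists. Every pair with anti-LTBR and with both agonists was higher than PBS, and with TNF 3 of 4 pairs were lower. Mcm3 rose by 0.54 with both agonists (SE 0.11, adjusted p = 0.00353), and this call remained with each single array left out. It was lost without the block, with PBS and both agonists fitted alone, and with all arrays numbered 1 or all numbered 2 left out. The difference of Mcm3 with anti-LTBR was 0.35 (adjusted p = 0.0662). A further Mcm3 probe set, 1426653_at, rose with anti-LTBR (0.59, adjusted p = 0.00736) and fell with TNF (-0.54, adjusted p = 0.0103), so the probe sets of this gene do not give the same calls. Mcm6 rose by 0.30 with both agonists (adjusted p = 0.0356), and Mcm4 fell by 0.54 with TNF (SE 0.12, adjusted p = 0.0133), each a call lost when any 1 of 4 arrays was left out. The other passing probe set of Mcm6, 1438852_x_at, stood at 0.14 with both agonists (limma, adjusted p = 0.527). The call of Mcm6 also ended in 8 of 15 alternatives that changed the processing, the groups or the numbers used. The second passing probe set of Mcm4 stood at -0.25. The pair differences of its main probe set were -0.70, -0.59, -0.01 and -0.86, so the pair numbered 2 hardly differed. Mcm2 and Mcm5 were not called against PBS with any treatment, and were higher with both agonists than with TNF, by 0.64 (adjusted p = 0.0407) and 0.69 (adjusted p = 0.0114). Those calls were lost when any 1 of 9 arrays was left out for Mcm2 and any 1 of 3 for Mcm5.

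**Figure D4:**
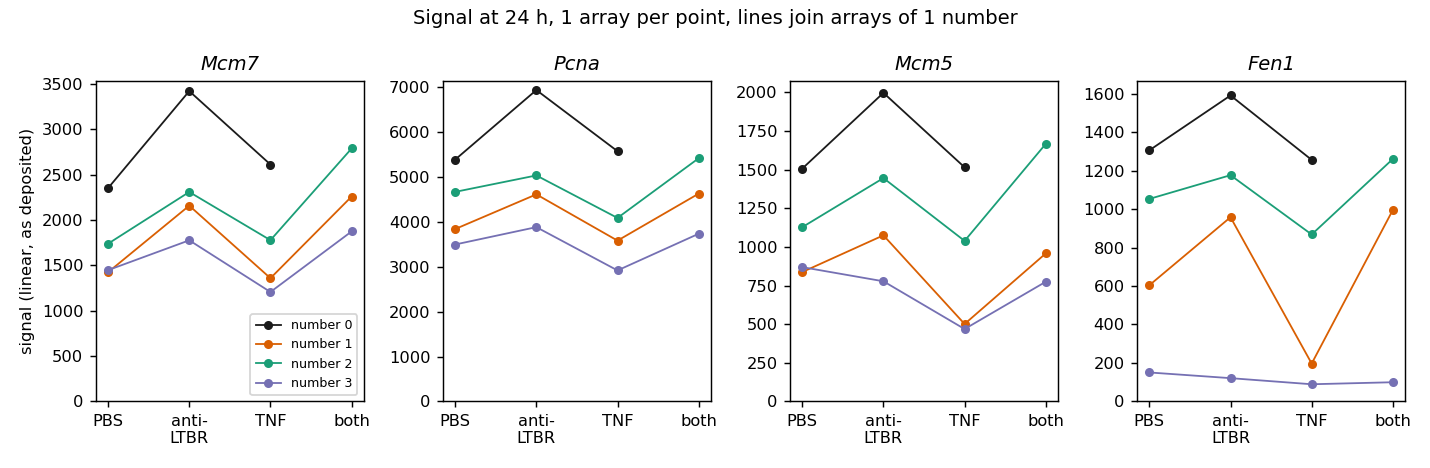
Linear signal (y axis) of Mcm7, Pcna, Mcm5 and Fen1 on each array at 24 h, with treatments along the x axis and lines joining arrays of 1 replicate number. Number 0 lies on top in each panel, and the lines of Mcm7 fall from anti-LTBR to TNF and rise from TNF to both agonists in each number that has both. Fen1 on the arrays numbered 3 lies between 89.2 and 150.5.

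Origin licensing is carried out by Cdc6 and Cdt1, which load the MCM ring. For Cdc6 the signals were 159.0, 82.8, 116.4 and 99.7 with PBS, 191.8, 144.8, 85.9 and 116.8 with anti-LTBR, 181.3, 75.1, 120.5 and 94.3 with TNF, and 103.5, 169.7 and 126.7 with both agonists. The groups overlap, and its difference with both agonists was 0.40 (SE 0.22, adjusted p = 0.244). Neither gene was called. The second passing probe set of Cdt1, 1424144_at, rose with both agonists (0.68, adjusted p = 0.00965), where the first stood at 0.23. Of the 4 genes that activate the helicase, Mcm10, Cdc45, Gins1 and Gins2, the last was called. Gins2 was at 751.7, 545.4, 564.9 and 467.1 with PBS, 835.1, 605.4, 687.9 and 475.6 with anti-LTBR, 794.3, 472.3, 615.8 and 429.0 with TNF, and 566.8, 803.5 and 532.9 with both agonists. It rose by 0.26 with both agonists (SE 0.09, adjusted p = 0.0483), and that call was lost when any 1 of 12 of the 15 arrays was left out. Gins1 gave the largest difference with anti-LTBR of these 4, 0.44, but at an SE of 0.20 and an adjusted p of 0.263.

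Pcna encodes the sliding clamp that holds the polymerases on DNA. It was at 5390, 3842, 4671 and 3498 with PBS, 6941, 4616, 5038 and 3885 with anti-LTBR, 5578, 3584, 4090 and 2920 with TNF, and 4632, 5421 and 3738 with both agonists. All 4 pairs with anti-LTBR and all 3 with both agonists were above PBS. Pcna rose by 0.22 with anti-LTBR (SE 0.05, adjusted p = 0.0177), a call that ended when any 1 of 5 arrays was left out. It rose by 0.23 with both agonists (SE 0.05, adjusted p = 0.00807), and that call ended without the array with both agonists numbered 2. The call also ended without the block, with arrays scaled to equal medians, with PBS and both agonists fitted alone, and without all arrays numbered 1. Among the 5 clamp loader genes, Rfc1 to Rfc5, the called one was Rfc5. Rfc5 was at 373.8, 247.0, 269.8 and 198.2 with PBS, 504.4, 273.2, 321.9 and 194.5 with anti-LTBR, 406.7, 162.6, 277.1 and 149.5 with TNF, and 316.4, 500.9 and 250.2 with both agonists. It rose by 0.57 with both agonists (SE 0.13, adjusted p = 0.00769), a call that also ended without the array with both agonists numbered 2. The call of Rfc5 was lost as well without the block, with PBS and both agonists fitted alone, and without all arrays numbered 2.

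The single-strand binding proteins Rpa1 and Rpa2, the primase subunits Prim1 and Prim2, and the polymerase subunits Pola1 and Pold1 had no call against PBS. Rpa2 was at 376.0, 274.2, 321.2 and 256.0 with PBS, 504.4, 319.1, 337.4 and 264.4 with anti-LTBR, 386.4, 169.5, 303.1 and 200.0 with TNF, and 232.2, 404.3 and 243.3 with both agonists. Pola1, the catalytic subunit of polymerase alpha, was at 293.7, 184.6, 270.0 and 246.3 with PBS, 529.3, 194.9, 352.5 and 193.6 with anti-LTBR, 304.1, 128.1, 227.7 and 188.2 with TNF, and 233.5, 338.8 and 218.4 with both. Both genes had overlapping groups, with number 1 lowest under TNF. Prim1 was at 770.0, 585.0, 698.4 and 683.4 with PBS, 806.8, 604.0, 645.1 and 578.7 with anti-LTBR, 734.0, 438.4, 619.4 and 493.1 with TNF, and 599.1, 811.8 and 558.4 with both agonists. With TNF its 4 pairs were lower than PBS, at a difference of -0.28 (SE 0.09, adjusted p = 0.0882).

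Fen1, the flap nuclease that trims Okazaki fragments, had the widest span between numbers of the 31 members, 3.58 on the log2 scale. Its signals were 1305, 603.8, 1053 and 150.5 with PBS, 1590, 957.5, 1176 and 120.9 with anti-LTBR, 1256, 196.8, 867.7 and 89.2 with TNF, and 995.3, 1260 and 99.7 with both agonists. Every array numbered 3 lay at or below 150.5. The other passing probe set of Fen1, 1421731_a_at, was at 202.4 to 339.5 on those arrays and at 159.5 to 445.3 over all 15, so the low values in number 3 belong to 1 of 2 probe sets. The TNF array numbered 1 was also low for both probe sets, at 196.8 and 159.5. Fen1 was not called against PBS (-0.65 with TNF, SE 0.28, adjusted p = 0.221). Lig1, the ligase that joins the fragments, was not called either.

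For nucleotide supply, Rrm1 and Rrm2 encode the large and small subunits of ribonucleotide reductase. Rrm1 was at 1755, 1178, 1468 and 1122 with PBS, 2323, 1480, 1829 and 1127 with anti-LTBR, 1903, 1263, 1617 and 900.6 with TNF, and 1667, 2059 and 1185 with both agonists. It rose by 0.38 with both agonists (SE 0.08, adjusted p = 0.00392). Each of the 3 pairs was higher, the pair numbered 3 by the least. The call remained with each single array left out. It was lost without the block, with PBS and both agonists fitted alone, and with all arrays numbered 1 or all numbered 2 left out. Rrm2 differed from PBS by -0.36 with TNF (adjusted p = 0.0762) and was higher with both agonists than with TNF by 0.66 (adjusted p = 0.00626).

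Among the genes of the G1/S switch, Ccne1 and Ccne2 encode the cyclins E, which activate Cdk2, and E2f1 a transcription factor of the replication genes. Ccne1 was at 347.8, 269.3, 344.3 and 432.8 with PBS, 486.1, 462.0, 380.6 and 432.3 with anti-LTBR, 408.3, 319.6, 356.9 and 527.1 with TNF, and 476.6, 498.5 and 564.9 with both agonists. All arrays with both agonists were above all PBS arrays. Ccne1 rose by 0.58 (SE 0.13, adjusted p = 0.00515), which is 1.5-fold, while its second passing probe set stood at 0.28 (adjusted p = 0.134). With TNF it was the member whose 4 pairs were all above PBS, at 0.20 (adjusted p = 0.385). Ccne2 fell by 0.48 with TNF (SE 0.13, adjusted p = 0.0408), a call lost when any 1 of 10 arrays was left out. E2f1 was not called with its main probe set (-0.25 with both agonists, adjusted p = 0.206), and its second, 1417878_at, fell with both agonists (-0.51, adjusted p = 0.0251).

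At 2 h and 6 h there was 1 array per group, so the differences have no replicate check and no test. None of the 31 genes reached a 2-fold difference from PBS with anti-LTBR or TNF, where 0.836% and 0.667% of all genes were 2-fold higher and lower with anti-LTBR at 2 h, and 1.7% and 0.836% with TNF. At 6 h these shares were 1.27% and 0.458% with anti-LTBR and 2.42% and 0.683% with TNF. The median of the members with TNF was -0.10 at 2 h and -0.16 at 6 h, while the medians of all genes were -0.03 and 0.01. Below 0 were 22 and 24 of 31 members, beside 57.0% and 48.8% of all genes. With anti-LTBR the members' medians were 0.00 at 2 h and -0.08 at 6 h. Below 0 were 16 and 22 of 31, beside 51.2% and 49.0% of all genes. On the arrays numbered 0 at 24 h the members' medians were 0.36 with anti-LTBR and 0.05 with TNF. The lowest member at 6 h with TNF was Cdc6 at -0.85 and the highest Ccne1 at 0.43. Between the PBS arrays numbered 0, the members' median moved by -0.07 from 2 h to 24 h.

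**Figure D5:**
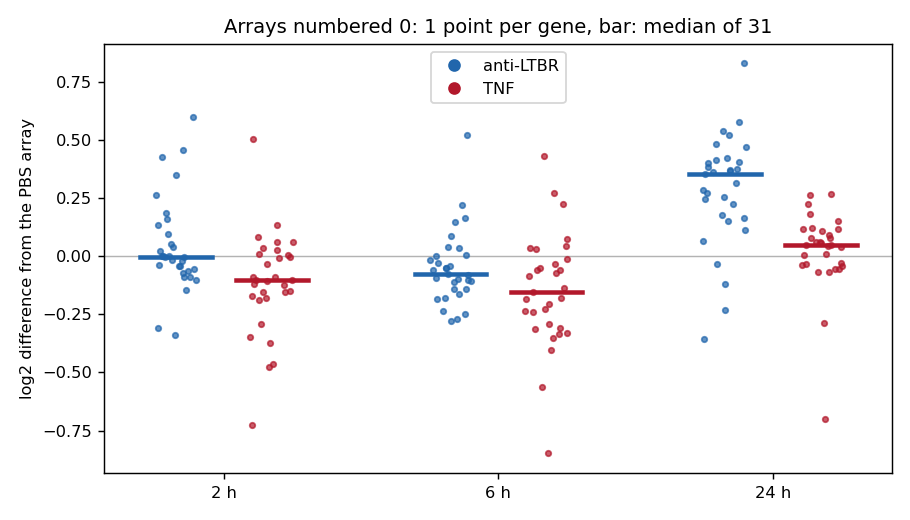
Log2 difference of the anti-LTBR and TNF arrays from the PBS array of the same time (y axis) at 2 h, 6 h and 24 h (x axis), arrays numbered 0, with 1 point for each of the 31 genes and a bar at the median. The anti-LTBR median moves from 0.00 at 2 h to 0.36 at 24 h, and the TNF median lies between -0.16 and 0.05.

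Other genes of the cell cycle and replication pathway, 73 by name and 69 tested, were counted for comparison. With both agonists against PBS 13 rose and 5 fell, beside 9.1% and 10.4% of all genes, and with both against TNF 18 were higher and 1 lower, beside 3.46% and 3.32%. With anti-LTBR 4 rose, Ccnd1, Cdk4, Cdk6 and Hells, and 0 fell, beside 2.56% and 2.23% of all genes. With TNF 1 rose (Ccnd1) and 3 fell (Ccna2, Dut and Hells), beside 3.05% and 2.88%. Ccnd1 encodes cyclin D1, the partner of the kinases Cdk4 and Cdk6 that phosphorylate the retinoblastoma protein. Its signal was 6222 to 9495 with PBS, 7203 to 11028 with anti-LTBR, 6471 to 10638 with TNF and 7979 to 12859 with both agonists, and it rose by 0.40 with both (SE 0.04, adjusted p = 8.62e-06). Cdk6 rose by 0.44 (adjusted p = 0.000281) and Cdk4 by 0.43 (adjusted p = 0.000462) with both agonists. Uhrf1, which helps copy DNA methylation at the fork, rose by 0.76 (adjusted p = 0.00286). Ccnd3, another D cyclin, fell by 0.27 (adjusted p = 0.00411), and Rb1, the retinoblastoma gene, fell by 0.26 (adjusted p = 0.00516). None of the 69 was called without the block.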

How the data were processed

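RNA from 21 samples was hybridised to 1 Affymetrix array each. The authors deposited linear signal intensities made with GCOS 1.4, per the submitters' processing notes; the summarization is not given in the sources used here. Each array had a mean of 500.0 after removal of 2% of the probe sets at each end, and no further scaling was applied. Control probe sets (64) were left out, and 34945 probe sets carry 1 gene symbol, 932 several and 9160 none.

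Testing required a signal over the array's median on 3 or more of 15 arrays (24 h), which 25110 probe sets met, and 1 probe set stood for each of 12446 genes. The offset of 10.1 is the 10th percentile of those arrays' signals. Genes were fitted with limma 3.58.1 in R 4.3.3 (lmFit, eBayes with a variance trend, 8 residual degrees of freedom) with the replicate number as a block. The numbers pair the arrays: deviations from the group means correlated at 0.46 to 0.81 in 21 pairs of one number and at -0.58 to 0.21 in 63 other pairs. The fit was tested on simulated data.

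The members, the lists of other genes and the choice of the block were made with earlier results of these data known. Values in every array are given for the member of each role with the smallest adjusted p against PBS (the 2 smallest in roles of 5 or more) and for every member called in at least 2 of the 3 comparisons with PBS. Values of other members are given where a comparison calls them or where they are described. Alternatives were the fit without the block, 2 scalings, 2 offsets, 2 filters, other probe set rules, no variance trend, fewer groups, and each array or number left out. The number of arrays limits the precision.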

Additional observations from a re-analysis of the deposited data

Results flagged for a closer look

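Of 93 sets of 4 arrays (31 members in PBS, anti-LTBR and TNF at 24 h), 1 held an array that stood apart by Dixon's criterion at the 95% level, which chance passes in about 1 in 20 sets. It was Rfc1, the large subunit of the clamp loader, with TNF: the array numbered 3 had a signal of 506.8, where the other TNF arrays lay at 794.1 to 839.3. Rfc1 was not called in any comparison. No member had a called interaction of the agonists by limma (9 at an unadjusted p under 0.05, beside 9.63% of all genes).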

How the results depend on the processing

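With no replicate block, 0 members were called with anti-LTBR, TNF or both agonists against PBS, 0 in both agonists against TNF and 0 in TNF against anti-LTBR; the block thus makes every call of a member. Arrays scaled to equal medians gave 4 called members with anti-LTBR (3.3%, 0.49%) and 1 with TNF (2.76%, 1.12%) against PBS. Brackets here and below give the shares of all genes called higher and lower. No variance trend gave 1 with anti-LTBR (1.84%, 1.67%), 1 with TNF (2.18%, 1.82%) and 2 in TNF against anti-LTBR (0.112%, 0.153%). No filter on low signals gave 1 with TNF (1.72%, 1.48%) and 3 in TNF against anti-LTBR (0.187%, 0.181%). Every probe set tested gave 1 with TNF among the main probe sets. Over all 61 passing probe sets of the members 2 fell, of Mcm3 and Mcm4. Only the groups compared gave 0 with TNF (1.45%, 0.972%) and 2 with both agonists (5.98%, 6.85%). Leaving out all arrays numbered 1, 2 or 3 was chosen after seeing the data. Numbers 1 to 3 gave 1 with anti-LTBR (1.61%, 0.908%) and 4 with TNF (2.62%, 1.95%). Number 1 left out gave 1 with anti-LTBR (0.996%, 0.458%), 0 with TNF (1.27%, 0.948%) and 4 with both (5.02%, 6.26%). It gave 3 in both against TNF (0.691%, 0.643%) and 0 in TNF against anti-LTBR (0.0723%, 0.0562%). Number 2 left out gave 1 with TNF (1.9%, 1.41%) and 4 with both (6.64%, 7.21%). It gave 6 in both against TNF (1.31%, 1.53%) and 3 in TNF against anti-LTBR (0.121%, 0.0884%). Number 3 left out gave 4 with anti-LTBR (1.36%, 1.04%), 0 with TNF (1.71%, 1.31%) and 3 in TNF against anti-LTBR (0.177%, 0.209%). Single arrays left out gave 1 to 4 with anti-LTBR, 0 to 5 with TNF, 4 to 11 with both, 6 to 12 in both against TNF and 2 to 8 in TNF against anti-LTBR. Of all genes, 1.48% to 2.88% then rose with anti-LTBR, 1.61% to 2.94% fell with TNF and 6.19% to 9.63% rose with both. In both against TNF 1.33% to 3.74% were higher, and in TNF against anti-LTBR 0.137% to 0.667% were lower. The cause of these changes was not tested. Both agonists against anti-LTBR and the interaction gave 0 in each of 30 alternatives. The numbers gave 24 to 30 called members with single arrays left out, beside 60.1% to 64.4% of all genes. Of 810 repeats of the 27 calls of single members, 623 kept the call, 187 lost it and 0 reversed.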
